A study of Mus musculus with 2 samples.

Results

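The colony-stimulating factors and their receptors are described here in nuclear RNA of stimulated mouse macrophages. The family was taken as the 3 ligand genes Csf1, Csf2 and Csf3 and the 5 receptor genes Csf1r, Csf2ra, Csf2rb, Csf2rb2 and Csf3r, found by gene name in the GENCODE M21 annotation (mm10). All 8 were found, among 55536 annotated genes, and they carry 39 annotated transcript models. Bone-marrow-derived macrophages (BMDM), cells grown from the marrow of C57BL/6J mice, had been given Lipid A, the part of bacterial lipopolysaccharide that Toll-like receptor 4 recognises, at 100 ng/ml for 40 min. RNA of the nucleoplasm was depleted of ribosomal RNA and sequenced in 2 libraries, biological replicates 1 and 2 of 1 group. Replicate 1 started from 1 µg of RNA and replicate 2 from 500 ng, fragments of 250 to 400 were selected in both, and both carry 1 donor identifier. Whether they come from separate animals is not stated, and their spread may be partly technical. The labels give neither the age nor the sex of the animals. With 1 group there is no contrast and no test: levels are given with the SD over 2 replicates, and unstimulated cells, other times and the cytoplasm were not analysed here.

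CSF1 (M-CSF), CSF2 (GM-CSF) and CSF3 (G-CSF) are secreted proteins that drive the survival, growth and differentiation of macrophages and granulocytes. CSF1 acts through the tyrosine kinase CSF1R, CSF3 through the homodimer of CSF3R, and CSF2 through a specific alpha chain, CSF2RA, paired with the common beta chain CSF2RB. The receptors of CSF2 and CSF3 have no kinase of their own and signal through JAK kinases and STAT transcription factors. Mice carry a second beta chain gene, Csf2rb2, next to Csf2rb, whose protein works with the IL-3 receptor alpha chain. Macrophages depend on CSF1R, and they can themselves make all 3 factors when stimulated.

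Levels are given in TPM, a unit that scales each transcript by its length and each library to 1 common total, from the authors' alignment-based tables, which also give a credibility interval within each library. The authors made a further table of each library directly from FASTQ files, and its values are called FASTQ-derived. A gene was called detected at 1 TPM or more in both replicates. The members had 7 of 8 genes detected, beside 40% of the 22028 protein-coding genes. By the FASTQ-derived values the count was again 7, beside 41.4% of protein-coding genes. Csf1r was the highest member, followed by its ligand Csf1, then the other 4 receptor genes at similar levels, then Csf2 and, below the threshold, Csf3. The median of the 8810 detected protein-coding genes was 7.42 TPM, so 6 members lay above it and Csf2 below. The 5 receptor genes summed to 728 TPM in replicate 1 and 527 in replicate 2, and the 3 ligand genes to 114 and 116 TPM. The members together took 0.303% of the expected counts assigned to genes in replicate 1 and 0.260% in replicate 2.

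**Figure D1:**
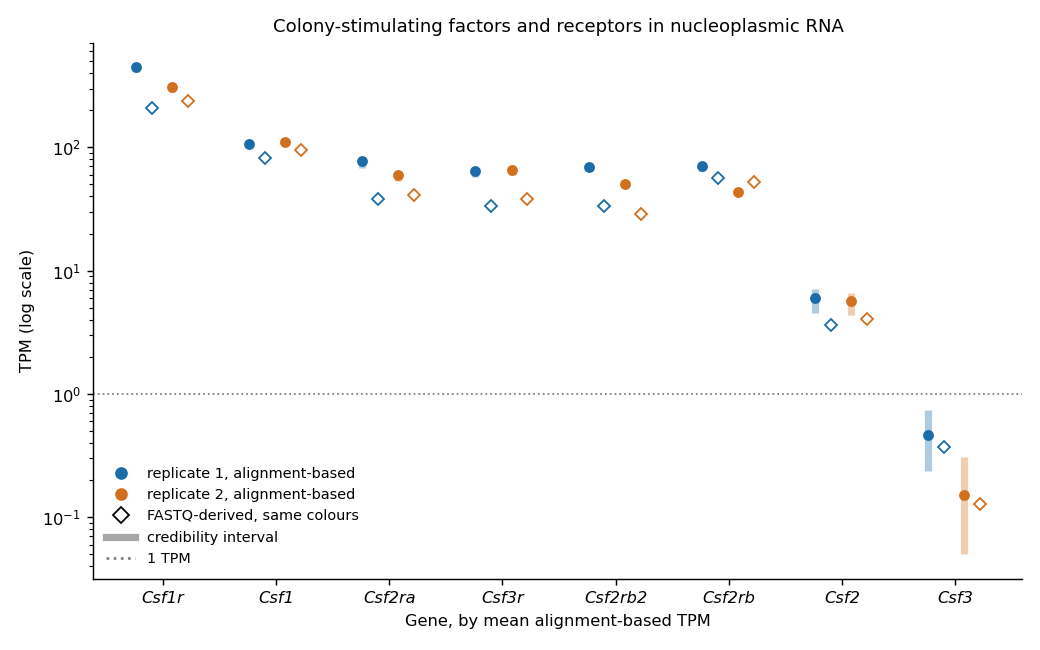
TPM (log axis) of the 8 genes in each library, with filled circles for alignment-based and open diamonds for FASTQ-derived values, bars for the authors' credibility intervals (narrower than most points) and a dotted line at 1 TPM. Csf1r lies at 448 and 308 TPM, 4 receptor genes lie together between 43.2 and 77.1 TPM, and Csf3 lies below the line in both libraries.

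The libraries held 19630046 and 18434601 expected counts, replicate 1 first, of which 0.672% and 0.196% were assigned to entries other than the annotated genes. These shares do not measure reads from outside genes, which such counts do not hold. Macrophage markers were present, with 9 of 10 detected, and their TPM summed to 3257 in replicate 1 and 2166 in replicate 2. The highest was the lysozyme gene Lyz2 at 1820 and 1264 TPM, and Marco, a scavenger receptor of some macrophage subsets, had 0.62 and 0.72 TPM. Of 11 neutrophil markers 1 was detected, the collagenase gene Mmp8 at 2.85 and 1.37 TPM, and the list summed to 8.33 and 3.74 TPM. Ly6g, Elane and Retnlg, which define neutrophils and their precursors, had 0 counts in both libraries. The B cell, T cell, dendritic cell, mast cell, fibroblast and endothelial lists summed to between 0.09 and 3.92 TPM in either library. Their highest genes were the endothelial receptor gene Kdr at 3.78 and 2.11 TPM, Zbtb46 of dendritic cells at 0.47 and 0.65, Lck of T cells at 0.02 and 0.19, Cd79a of B cells at 0.07 and 0.03, Mcpt8 of mast cells and basophils at 0.07 and 0.06 and Col1a2 of fibroblasts at 0.04 and 0.08 TPM. By the FASTQ-derived tables the T cell gene Cd3d stood higher, at 2.38 and 4.28 TPM.

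Csf1, the macrophage growth factor itself, was the highest ligand. The gene lies on the minus strand at chr3:107741048-107760469. It had 107 TPM in replicate 1 (credibility interval 98.9 to 107) and 110 TPM in replicate 2 (104 to 110), a mean of 109 ± 2.23 (SD, n = 2), at the 98.5th percentile of protein-coding genes. FASTQ-derived values were 82.6 and 95.3 TPM. The TPM of both libraries lay close together, but rested on 6556 expected counts in replicate 1 and 9748 in replicate 2. Rescaled over protein-coding genes that are not mitochondrial, TPM was 421 and 620, so the closeness depended on the scaling.

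Csf1 has 7 models, and the main ones differ in an exon that decides what kind of protein is made. The long coding form keeps a stretch that holds the sites for cleavage and for sugar attachment, giving secreted CSF1, and the form without it gives CSF1 that stays on the cell surface. In Csf1-201 (4176 bases, 1656 of them coding) this exon spans chr3:107748154-107749169. In Csf1-202 (3058 bases, 771 coding) it begins at 107748284 on the minus strand, which leaves out 885 bases, or 295 codons, in frame. The junctions that tell the forms apart are shown on the minus strand, 5′ to 3′, with the bases that Csf1-202 lacks in capitals. The first line joins the upstream exon to the long exon (chr3:107749150-107750330, intron included), the second is the end of the stretch (chr3:107748265-107748304), and the third is the junction of Csf1-202 (chr3:107748265-107750330, intron included).
Csf1-201, start of the stretch: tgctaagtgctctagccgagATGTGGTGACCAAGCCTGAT
Csf1-201, end of the stretch: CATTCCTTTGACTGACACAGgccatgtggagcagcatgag
Csf1-202, junction: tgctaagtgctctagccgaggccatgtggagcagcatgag

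Both coding forms were present. Csf1-201 had 49.5 TPM in replicate 1 and 57.7 in replicate 2, and Csf1-202 had 19.9 and 28.4 TPM, so the model of the long form was higher in both libraries. FASTQ-derived values put Csf1-201 at 15.1 and 16.7 TPM and Csf1-202 at 13.9 and 23.9 TPM, so there Csf1-201 was higher in replicate 1 and lower in replicate 2. Csf1-203, which encodes the long form with another 3′ end, had 7.21 and 4.02 TPM by alignment and 11.1 and 13.6 TPM by the FASTQ-derived tables. Counted with Csf1-203, the long form exceeded the model Csf1-202 in both libraries and in both kinds of table. That comparison left out Csf1-204, a coding model of 821 bases, too short to hold the whole stretch of 885 bases. Csf1-204 had 7.21 and 3.27 TPM by alignment and 12.6 and 12.9 TPM by the FASTQ-derived tables. With Csf1-204 added to Csf1-202, the sum of Csf1-201 and Csf1-203 stayed higher by alignment but not by the FASTQ-derived tables. By the FASTQ-derived tables the order of the forms thus depended on which models were counted. The only model that keeps an intron, Csf1-206, took 13.6% and 8.88% of the gene's TPM.

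Csf2 was present at a low level. It encodes GM-CSF and lies on the minus strand at chr11:54247271-54249667, with a single model of 800 bases. It had 6.03 TPM in replicate 1 (credibility interval 4.52 to 7.08) and 5.63 TPM in replicate 2 (4.40 to 6.62), a mean of 5.83 ± 0.283 (SD, n = 2). The values rest on 77 and 92 expected counts, whose exact Poisson 95% intervals were 60.8 to 96.2 and 74.2 to 113. No molecular identifiers mark single molecules here, so these intervals cover counting error only. FASTQ-derived values were 3.62 and 4.08 TPM. The intervals of the libraries overlapped, and Csf2 stood at the 77.3rd percentile of protein-coding genes. Gm12223, an antisense gene that overlaps a Csf2 exon, had 0 counts in both libraries. Il3, the neighbouring cytokine gene 15635 bases away on the same strand, also had 0 counts, which allows up to 3 counts in each library.

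Csf3 lay below the threshold. It encodes G-CSF and lies on the plus strand at chr11:98701263-98703629, also with a single model. It had 0.46 TPM in replicate 1 (credibility interval 0.237 to 0.744) and 0.15 TPM in replicate 2 (0.0499 to 0.311), from 12 and 5 expected counts. The exact Poisson 95% intervals of these counts, 6.20 to 20.96 and 1.62 to 11.7, overlap, so a difference between the libraries was not detectable at this depth. FASTQ-derived values were 0.373 and 0.128 TPM. Csf3 was therefore about as low as the middle of all protein-coding genes, at the 49.6th percentile, while its flanking genes Psmd3, of the proteasome, and Med24, of the Mediator complex, had means of 7.02 and 6.50 TPM.

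The ligand transcripts also differ in a sequence feature for which cytokine mRNAs are known, the motif ATTTA, repeats of which mark mRNAs for fast decay in the cytoplasm. The motif was searched on the transcript strand only, after the stop codon, and overlapping copies were counted. Csf2-201 held 9 copies in 317 bases, 5 of them in 1 overlapping run. Among 13543 protein-coding genes whose model numbered 201 has at least that many bases after the stop codon, 33.5% held at least 1 copy in the first 317 bases, 2 genes (0.0148%), Csf2 included, held 9 or more, and 18 genes (0.133%) held a run of 5 anywhere after the stop codon. Csf3-201 held 6 copies in 669 bases, Csf1-201 held 4 in 2111 bases, and Csf1-203 held none in 259 bases. Among receptor models, Csf1r-201 held 2 copies in 654 bases and Csf1r-202 held 3 in 1669 bases, none in an overlapping run, so that Csf1r-201 at 3.06 copies per 1000 bases was denser than Csf1-201 at 1.89. The models Csf2ra-201, Csf2rb-201, Csf2rb2-201 and Csf3r-201 held none, which says only that these letters are absent there. The run of Csf2 (minus strand, chr11:54247325-54247353) and the densest 30 bases of Csf3 (plus strand, chr11:98702984-98703013) are shown 5′ to 3′ with the motif in capitals, since these models held the most copies per 1000 bases, 28.4 for Csf2-201 and 8.97 for Csf3-201.
Csf2-201: aaatATTTATTTATTTATTTATTTAtttt
Csf3-201: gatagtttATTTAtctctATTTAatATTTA

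Each receptor gene was higher than its ligand in both libraries. The difference was computed as log2((TPM + 1) of the receptor over (TPM + 1) of the ligand). Csf1r over Csf1 was 2.05 in replicate 1 and 1.47 in replicate 2, a mean of 1.76 ± 0.41 (SD, n = 2) or 3.39-fold, and 1.33 ± 0.01 by the FASTQ-derived values. Csf2ra over Csf2 was 3.34 ± 0.20, or 10.1-fold, and Csf2rb over Csf2 was 3.04 ± 0.42, or 8.20-fold. Csf3r over Csf3 was 5.66 ± 0.27, or 50.6-fold, a value that depends on the pseudocount because Csf3 is near 0, as it was 7.43 ± 0.85 with a pseudocount of 0.1. All 4 differences, with every model of each gene counted, exceeded the spread between replicates. That of Csf1r rests in part on a short model, Csf1r-205, described below. Without this model Csf1r had 199 and 101 TPM by the FASTQ-derived values, beside 82.6 and 95.3 for Csf1. By alignment it had 428 and 178 TPM without the model, beside 107 and 110 for Csf1. All these differences compare nuclear RNA of different genes and say nothing of protein.

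Csf1r, the receptor tyrosine kinase for CSF1 and IL-34 and a defining gene of macrophages, was the highest member in each library. It lies on the plus strand at chr18:61100598-61132149. It had 448 TPM in replicate 1 and 308 TPM in replicate 2, a mean of 378 ± 99.1 (SD, n = 2), at the 99.7th percentile of protein-coding genes. The credibility intervals, 411 to 443 and 282 to 315, lay apart, and in replicate 1 the interval lies below the TPM itself, since it is centred on the posterior mean. Csf1r and Csf1 kept the same order in both libraries and in the FASTQ-derived tables, with intervals apart. FASTQ-derived values were 210 TPM in replicate 1 and 240 in replicate 2, so the library that was higher by alignment was the lower one there. Hmgxb3, on the opposite strand, overlaps the 3′ end of Csf1r by 873 bases and had 13.2 and 9.36 TPM. As the strand setting of the counting is not given in the sources used here, reads of the overlap cannot be told apart. Mir6983, a microRNA gene in an intron of Csf1r, had 0 counts.

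The libraries differed in which Csf1r model carried the signal. The long coding models Csf1r-201 and Csf1r-202 had 415 TPM together in replicate 1 and 174 TPM in replicate 2. Csf1r-205, a 3-exon model of 416 bases at the 5′ end that is annotated as an incomplete coding transcript, had 20.3 TPM in replicate 1 (credibility interval 5.15 to 37.5) and 130 TPM in replicate 2 (108 to 142). Its share of the gene was 4.53% in replicate 1 and 42.1% in replicate 2, and the FASTQ-derived tables gave 5.35% and 57.9%. By expected counts it was a small part of the gene in both, 92.1 of 35069 counts in replicate 1 and 695 of 20822 in replicate 2. TPM divides by length, so that 695 counts on a short model made up 130 of the 308 TPM of replicate 2. Without Csf1r-205 the log2 ratio of replicate 2 over replicate 1 was -1.26 by alignment-based TPM and -0.98 by FASTQ-derived TPM, against -0.54 and 0.19 with all models. A shift of 25 percentage points or more in the share of a model between replicates was found in 1 of the 6 members with over 1 model, Csf1r, beside 15.7% of 8272 detected protein-coding genes with over 1 model. Seen in both kinds of table and in the same direction, it was again found in 1 of 6, beside 4.67% of those genes. RNA input differs between the same libraries, and its part in the shift was not tested.

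**Figure D2:**
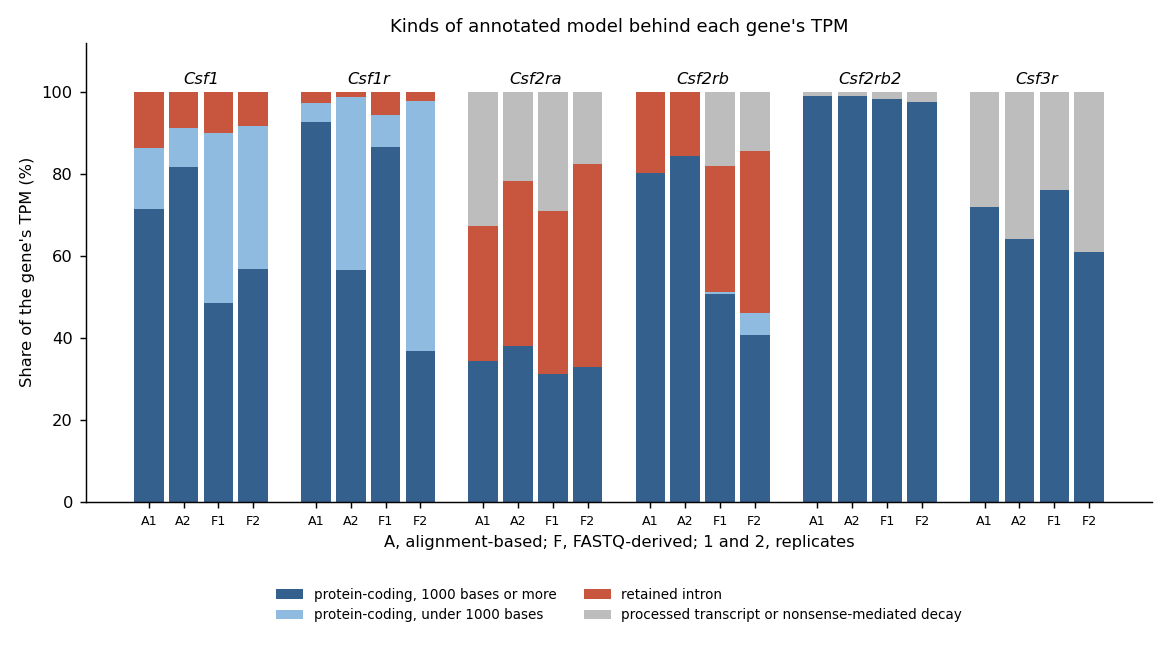
Share of each gene's TPM (%) by kind of annotated model, for the 6 members with over 1 model, in the alignment-based (A) and FASTQ-derived (F) tables of replicates 1 and 2. Short coding models take 42.1% of Csf1r in A2 but under 5% in A1, retained-intron models take 33.0% and 40.2% of Csf2ra in A1 and A2, and Csf2rb2 is almost wholly its long coding models.

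Csf2ra, the alpha chain that gives the GM-CSF receptor its specificity, had 77.1 TPM in replicate 1 (credibility interval 68.3 to 83.2) and 59.8 TPM in replicate 2 (53.3 to 64.4), a mean of 68.5 ± 12.3 (SD, n = 2). It lies on the minus strand at chr19:61223957-61228429 and was the member with the smallest share of full coding models. Its coding models took 34.4% and 38.0% of its TPM, and nearly all of that was Csf2ra-201 (1849 bases) at 26.0 and 22.5 TPM. Its 4 retained-intron models, which are transcripts annotated with an intron still in place, took 33.0% and 40.2%, led by Csf2ra-202 at 13.0 and 8.65 TPM and Csf2ra-205 at 9.29 and 14.5 TPM. Csf2ra-204, a processed transcript of 330 bases without a coding sequence, had 25.2 and 13.0 TPM from 69.4 and 39.4 expected counts. By expected counts the coding share was 56.5% ± 3.17 and the retained-intron share 40.4% ± 1.89 (SD, n = 2). The coding model Csf2ra-201 itself averaged 24.2 TPM, against 68.5 TPM for the whole gene.

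Of the 4 members with a retained-intron model, 2 held 10% or more of their TPM in such models in both libraries, Csf2ra and Csf2rb, beside 73.5% of 5736 detected protein-coding genes with such a model. The shares averaged 36.6% ± 5.10 for Csf2ra, 17.7% ± 2.90 for Csf2rb, 11.2% ± 3.31 for Csf1 and 2.03% ± 0.96 for Csf1r (SD, n = 2), and the median of those background genes was 26.0%. By expected counts, which give short models less weight, Csf2rb held 6.35% and 6.02% and no longer passed 10%. Csf1 held 9.31% and 5.56%, and Csf2ra was the only member that passed. No background share by expected counts was computed, so these calls cannot be set against other genes. By TPM, Csf1, Csf1r and Csf2rb lay below the background median of 26.0% and Csf2ra above it. By the FASTQ-derived tables Csf2rb stood at 30.7% and 39.3%, close to their background median of 32.0%, and Csf2ra stood at 39.7% and 49.5%. The shares speak of annotated models only, since reads from introns that no model keeps are not counted in these tables.

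Csf2rb encodes the beta chain shared by the receptors for GM-CSF, IL-3 and IL-5, and Csf2rb2 its neighbouring copy. Csf2rb lies on the plus strand at chr15:78325752-78353847 and Csf2rb2 on the minus strand at chr15:78282507-78305721, with 20030 bases between them. Csf2rb had 69.9 TPM in replicate 1 (credibility interval 64.5 to 73.8) and 43.2 TPM in replicate 2 (41.0 to 46.3), a mean of 56.6 ± 18.9, and Csf2rb2 had 69.3 TPM (64.4 to 68.1) and 50.8 TPM (48.1 to 51.0), a mean of 60.0 ± 13.1 (SD, n = 2). The pair overlapped in replicate 1, and in replicate 2 Csf2rb was the lower. Both genes are listed with a microRNA gene inside an exon, Mir7676-2 in Csf2rb and Mir7676-1 in Csf2rb2, each at 0 counts.

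The copies are close enough to share many short stretches of sequence, though the assignment of reads between them was not tested. Over the coding sequences of Csf2rb-201 (2688 bases) and Csf2rb2-201 (2634 bases), 95.2% of aligned bases were identical, with 125 differences, against 98.4% before the coding sequence and 90.2% after it. Of all 31-base words in the models of Csf2rb, 18.8% also occurred in models of Csf2rb2, and 28.6% of those of Csf2rb2 occurred in Csf2rb. Between the coding sequences of Csf2rb-201 and Csf2rb2-201 these shares were 39.6% and 40.4%. They were 53.1% and 46.0% before the coding sequence, and 7.77% and 7.87% after it. The start of each coding sequence and the 60 aligned bases with the most differences are shown 5′ to 3′. Differing bases are in capitals, as examples of stretches with few and with many differences. The first 2 lines (chr15:78335207-78335266, plus strand, and chr15:78298170-78298229, minus strand) differ at 1 base, and the last 2 (chr15:78338893-78338952, plus strand, and chr15:78294379-78294438, minus strand) differ at 13.
Csf2rb, start: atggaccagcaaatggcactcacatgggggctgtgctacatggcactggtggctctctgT
Csf2rb2, start: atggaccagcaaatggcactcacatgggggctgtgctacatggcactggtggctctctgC
Csf2rb, most different: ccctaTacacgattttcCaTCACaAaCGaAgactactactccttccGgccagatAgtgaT
Csf2rb2, most different: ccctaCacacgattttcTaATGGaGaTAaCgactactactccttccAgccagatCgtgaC

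Which copy was higher depended on the table. The log2 ratio of Csf2rb over Csf2rb2, on TPM + 1, was 0.01 in replicate 1 and -0.23 in replicate 2, a mean of -0.11 ± 0.17 (SD, n = 2), within the spread between replicates. By FASTQ-derived TPM it was 0.73 and 0.86, a mean of 0.80 ± 0.09, with Csf2rb higher. The FASTQ-derived tables gave Csf2rb 34.5% and 47.0% of its TPM in models under 1000 bases, where the alignment-based tables gave 9.58% and 5.10%. On the full-length models Csf2rb-201 and Csf2rb2-201 alone, Csf2rb was the lower in every table, at -0.32 ± 0.07 by alignment and -0.33 ± 0.01 by FASTQ-derived values. Whole-gene counts also gave lower values for Csf2rb, at -0.26 ± 0.11 for expected counts and -0.12 ± 0.10 for FASTQ-derived counts. The comparisons on full-length models and on counts were added after the data had been seen. Csf2rb2-201 carried 97.3% and 92.9% of its gene's TPM, and Csf2rb-201 carried 79.9% and 84.2% of its own.

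**Figure D3:**
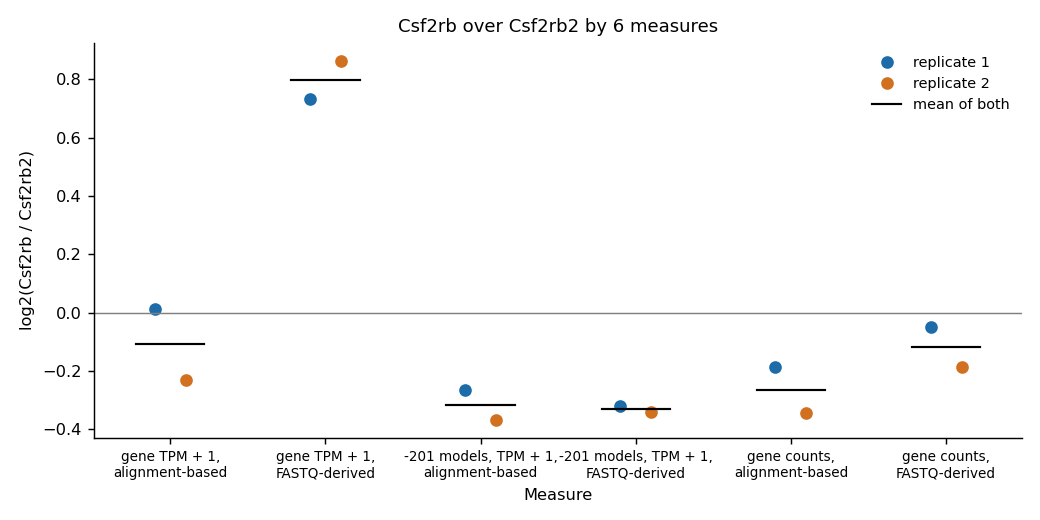
Log2 of Csf2rb over Csf2rb2 in replicates 1 and 2 by 6 measures, with a line at the mean of both replicates. Gene-level FASTQ-derived TPM lies above 0 at 0.80, whereas both measures on the full-length models lie near -0.3 and those on counts between -0.26 and -0.12.

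Csf3r, the receptor for G-CSF, best known from neutrophils, had a mean alignment-based TPM between those of the GM-CSF receptor chains Csf2ra and Csf2rb. By this measure it was below both in replicate 1 and above both in replicate 2. It lies on the plus strand at chr4:126024550-126044440. It had 63.7 TPM in replicate 1 (credibility interval 57.1 to 64.4) and 65.3 TPM in replicate 2 (59.9 to 66.6), a mean of 64.5 ± 1.12 (SD, n = 2), from 3206 and 4033 expected counts. FASTQ-derived values were 33.3 and 38.2 TPM, below those of Csf2ra (38.5 and 40.7) and Csf2rb (55.9 and 52.8) in both libraries. The libraries overlapped by alignment, but TPM rescaled over protein-coding genes that are not mitochondrial was 250 and 367. Its level stood beside neutrophil markers that summed to 8.33 and 3.74 TPM over 11 genes, with S100a8 at 1.48 and 0 TPM, S100a9 at 1.34 and 0.87, Ltf at 1.74 and 0.54, Ngp at 0.59 and 0.74, Camp at 0.17 and 0.07, Mpo at 0.13 and 0.09, and the chemokine receptor Cxcr2 at 0.03 and 0.06 TPM. By the FASTQ-derived tables Cxcr2 stood at 1.25 and 1.03 TPM and was the 1 neutrophil marker detected, with Mmp8 at 1.31 and 0.786 TPM. In bulk RNA, fewer cells of a type and less RNA per cell cannot be told apart. The coding models Csf3r-201 and Csf3r-202 took 71.9% and 64.0% of its TPM, with Csf3r-201 at 41.7 and 33.8 TPM. The processed transcript Csf3r-203, without a coding sequence, had 15.7 and 20.8 TPM by alignment but 0 and 7.44 TPM by the FASTQ-derived tables. Of the 31-base words in the models of Csf3r, 19.9% also occurred in AC105061.2, an annotated processed pseudogene, so its reads could be split with that gene.

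Ordered by mean TPM, neighbours were taken to differ where both libraries gave the same order and the credibility intervals lay apart in both. Csf1r was above Csf1, 3.48-fold, and Csf1 above Csf2ra, 1.59-fold, by this rule. Among Csf2ra, Csf3r, Csf2rb2 and Csf2rb, at means of 68.5, 64.5, 60.0 and 56.6 TPM, no neighbouring pair was separated. Csf2ra and Csf2rb2, which are not neighbours in this order, did meet the rule, narrowly in replicate 1. Csf2ra was the higher, with intervals from 68.3 against up to 68.1 in replicate 1, and from 53.3 against up to 51.0 in replicate 2. Csf2rb was above Csf2, 9.70-fold, and Csf2 above Csf3, 19.1-fold. FASTQ-derived values kept the order of each neighbouring pair except that of Csf2rb2 and Csf2rb, with Csf3r and Csf2rb2 almost equal in replicate 1 (33.26 and 33.24 TPM). Csf2rb, the lowest of these 4 receptor genes by alignment-based mean, was the highest of them there. Its FASTQ-derived mean was 54.4 TPM, against 39.6 for Csf2ra, 35.7 for Csf3r and 30.9 for Csf2rb2. The members were lower by FASTQ-derived than by alignment-based TPM in both libraries for 7 of 8 genes, all but Csf2rb, as were 79.3% of detected protein-coding genes.

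Between the replicates, no member with a mean of at least 10 counts passed 2-fold after scaling of the counts by trimmed mean of M values (TMM). That was 0 of 7 members, beside 4.98% of 14527 genes. The largest ratios of replicate 2 over replicate 1 were those of a receptor and its own ligand, in opposite directions. Csf1r was lower in replicate 2, with a log2 ratio of -0.65 (95% counting error ± 0.02), and Csf1 was higher, at 0.67 ± 0.05 by the same measure. Of the 14527 genes, 13.3% had a ratio as large as that of Csf1r in either direction, and 12.6% one as large as that of Csf1. Csf3r was higher in replicate 2 by 0.43 ± 0.07 and Csf2ra by 0.15 ± 0.10, Csf2rb was lower at -0.12 ± 0.05, and Csf2 at 0.35 ± 0.44 and Csf2rb2 at 0.04 ± 0.05 were within counting error. FASTQ-derived counts gave -0.67 for Csf1r and 0.55 for Csf1. The TPM ratios sat lower over the whole table: the median detected protein-coding gene had a TPM ratio of -0.49 on the log2 scale by alignment and -0.16 by the FASTQ-derived tables, against 0.03 by scaled counts. Relative to the median of -0.49, the alignment-based TPM ratio of 0.04 for both Csf1 and Csf3r was high and the -0.54 of Csf1r was near it. The Csf1r value includes the short model Csf1r-205, and without that model it was -1.26, well below the median.

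**Figure D4:**
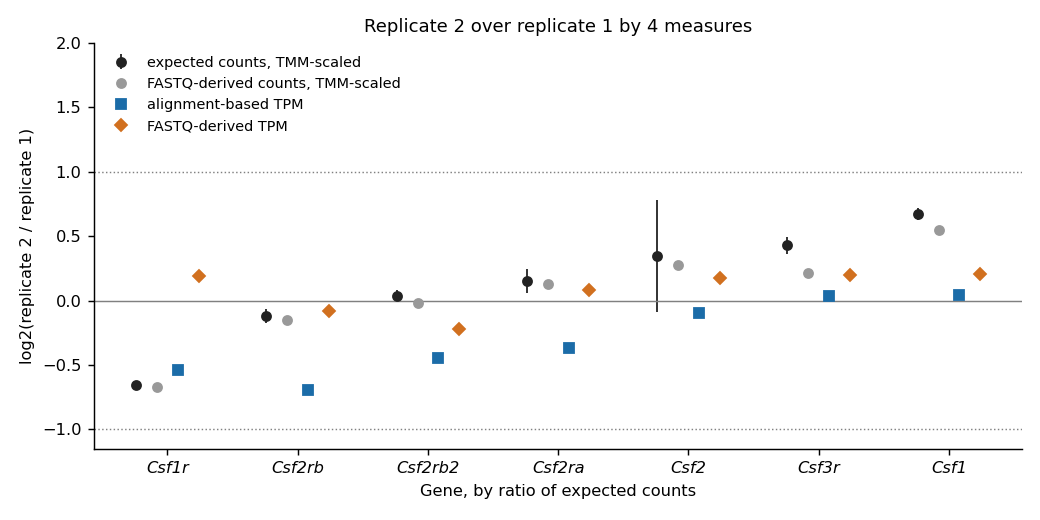
Log2 of replicate 2 over replicate 1 for the 7 members with enough counts, by scaled expected counts (with the 95% counting error as bars), scaled FASTQ-derived counts and both kinds of TPM, with dotted lines at 2-fold. Csf1r lies at -0.65 and Csf1 at 0.67 by counts, and alignment-based TPM lies below the counts for every member but Csf1r.

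The other genes of these pathways were read from a list of 48, and 38 of them (79.2%) were detected, beside 40% of protein-coding genes. Transcription factors known to act on or below the receptors were detected in 9 of 9 cases. The highest were Runx1, of the core binding factor complex, at 139 TPM in replicate 1 and 97.0 in replicate 2, Stat3 at 50.4 and 27.9, and Ets2, which activates macrophage genes below CSF1R, at 38.4 and 21.1 TPM. The lowest were Stat5a at 12.7 and 7.42 TPM, Stat5b at 8.26 and 4.38 TPM, both carriers of the CSF2 signal, and Cebpa at 6.00 and 6.13 TPM. Kinases and adaptors were detected in 15 of 16 cases. The regulatory PI 3-kinase subunit gene Pik3r1 led them at 152 and 96.0 TPM, followed by the adaptor Tyrobp at 96.2 and 74.4 and the Src family kinase Lyn at 92.5 and 61.0 TPM. Sos1 had 3.19 and 2.58 TPM, Src 2.21 and 1.80 TPM, and Fgr, 0.32 and 0.34 TPM, was not detected. Jak2, the kinase bound to the beta chain, had 10.9 and 10.5 TPM and was named after its values were seen.

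Inhibitors and processing genes were detected in 11 of 12 cases. Socs3, a feedback inhibitor that binds CSF3R, was the highest at 177 TPM in replicate 1 and 101 in replicate 2. Adam17, the protease that sheds CSF1 and CSF1R from the cell surface, had 120 and 61.1 TPM, and Inpp5d, which encodes the lipid phosphatase SHIP1, had 89.3 and 67.7 TPM. Cish had 4.33 and 3.66 TPM, Dok1 4.45 and 3.16 TPM, and Socs1, an inhibitor of JAK kinases, 1.43 and 0.53 TPM, so that it missed the threshold in replicate 2. The related ligands and receptors were the exception, with 3 of 11 detected. These were Il3ra, the alpha chain that pairs with both beta chains, at 11.0 and 9.42 TPM, Flt3l at 4.91 and 2.88 TPM, and Kitl at 1.42 and 1.22 TPM. Il34, the second ligand of CSF1R, had 0.30 and 0 TPM, Il5 had 0.03 and 0 TPM, its receptor gene Il5ra 0 and 0.03 TPM, and Il3 and Pdgfra had 0 counts. The alpha chains that share CSF2RB thus stood in the order Csf2ra, Il3ra and Il5ra in both libraries. Members and list alike were read at 1 time in 1 group, so none of these levels can be called a response to Lipid A.

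**Figure D5:**
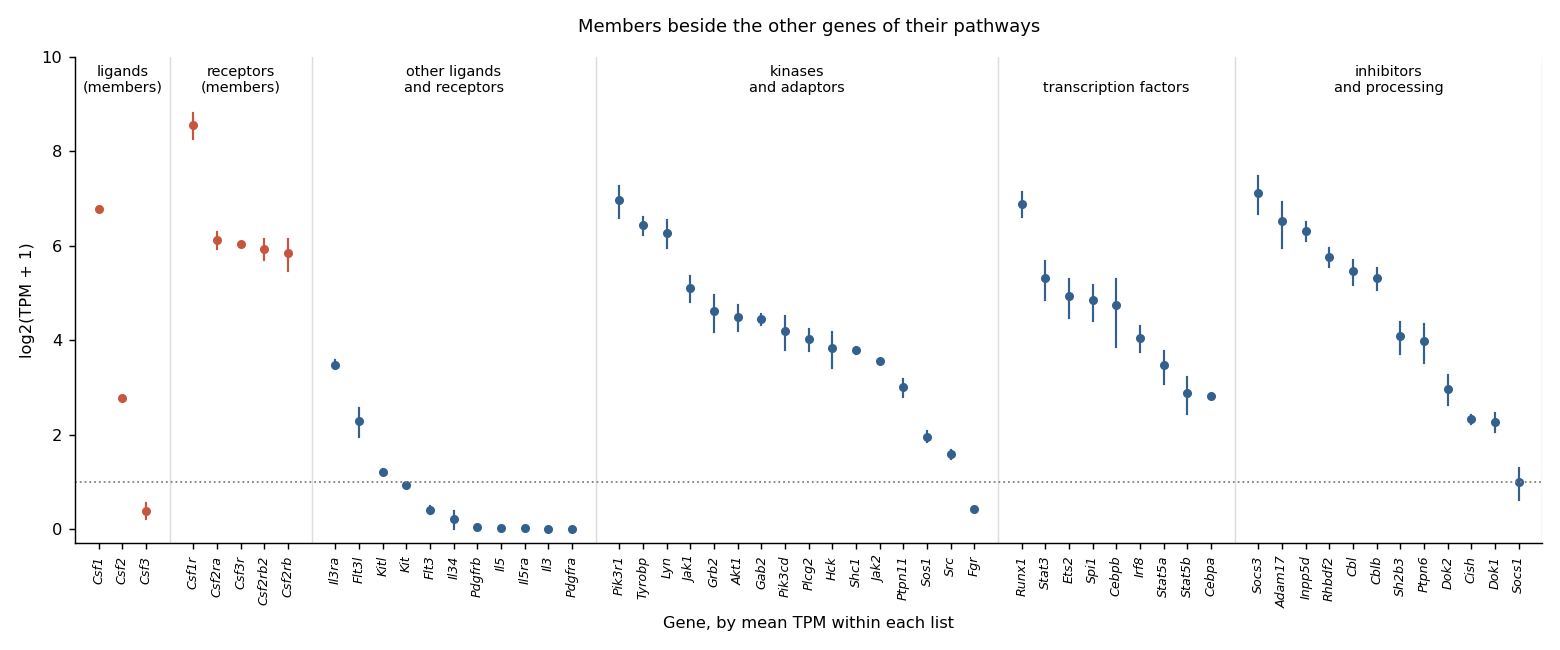
Level on the log2(TPM + 1) scale of the 8 members (red) and 48 other pathway genes (blue) by list, with points at the mean and lines joining the replicates, and a dotted line at 1 TPM. Csf1r is the highest gene shown at a mean of 378 TPM, and 8 of the 11 related ligands and receptors lie below the line.

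The flanking protein-coding genes had levels of their own. Pdgfrb, which lies 15536 bases upstream of Csf1r on the same strand and encodes a related receptor kinase, had 0.03 TPM in both libraries. Ncf4, an NADPH oxidase subunit gene beyond Csf2rb2, had 76.4 and 64.0 TPM by alignment, above both beta chain genes in each library. By FASTQ-derived values Ncf4 had 53.0 and 50.6 TPM, above Csf2rb2 but below Csf2rb at 55.9 and 52.8. Tex33, beyond Csf2rb, had 0 TPM. Ahcyl1, next to Csf1, had 23.6 and 14.7 TPM, and Eps8l3, on its other side, had 0. Mrps15, 2484 bases from Csf3r, had 7.05 and 4.44 TPM, and P4ha2, on the side of Csf2 away from Il3, had 2.48 and 1.59 TPM. Grik3, Gm6020 and Gm21060, the remaining neighbours of Csf3r and Csf2ra, had 0 TPM by alignment.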

How the data were processed

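RNA-seq of 2 libraries was used as the authors deposited it. Per the labels and the notes deposited beside them, the tables use mm10 and GENCODE M21. Which aligner and which quantifiers were run, and with what strand option, is not given in the sources used here. The authors' alignment-based tables hold expected counts, TPM and credibility bounds of TPM, and the authors' FASTQ-derived table holds estimated counts and TPM per transcript model, per the file headers. The deposited TPM values were used as they stand, and FASTQ-derived TPM and estimated counts were summed over the models of a gene. Depth was 19630046 and 18434601 expected counts, and 26929533 and 33536257 estimated counts.

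Expected counts of genes with a mean of at least 10, rounded, were scaled with edgeR 4.0.16 (TMM, prior count 2; R 4.3.3), or DESeq2 1.42.0 size factors as an alternative, to give the ratio between replicates, with no test; the step was tested on simulated data in which 200 genes had been changed. Ratios of genes used log2(TPM + 1). Models, positions and sequences came from GENCODE M21 (Python 3.11.15, pandas 2.3.3). Named were all 8 members, the 3 highest and 3 lowest genes of each pathway group, the highest of each main marker list, all neutrophil markers, flanking and overlapping genes. The members and lists were chosen with earlier results of these data known. Alternatives changed the pseudocount, filter, scaling, kind of table, measure and replicates used.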

Additional observations from a re-analysis of the deposited data

How the results depend on the processing

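The count of members detected and that of pathway genes detected stayed within 1.5 times their values under all 6 alternatives each. Among receptor and ligand pairs, 7 of 24 alternatives moved the log2 ratio by more than the replicate SD. By FASTQ-derived TPM it was 1.33 for Csf1r over Csf1, 3.07 for Csf2ra over Csf2, 3.51 for Csf2rb over Csf2 and 4.88 for Csf3r over Csf3. With no pseudocount it was 3.54 for Csf2ra over Csf2 and 7.94 for Csf3r over Csf3, and with a pseudocount of 0.1 it was 7.43 for the last. Csf2rb over Csf2rb2, -0.11, turned to 0.80 by FASTQ-derived TPM, and on the full-length models it was -0.32 by TPM and -0.33 by FASTQ-derived TPM. It was -0.23 without replicate 1 and 0.014 without replicate 2. Between replicates, log2 ratios of TPM + 1 turned the sign of Csf2 (-0.085), Csf2ra (-0.36) and Csf2rb2 (-0.44), and FASTQ-derived counts that of Csf2rb2 (-0.017). The causes were not tested. Levels differ in scale between tables, and TPM rescaled over protein-coding genes that are not mitochondrial gives other units. The rescaling also changed which members were close between replicates. The SD rose from 2.05% to 27.0% of the mean for Csf1, from 4.85% to 20.3% for Csf2 and from 1.74% to 26.7% for Csf3r. For every other member it fell, as from 26.2% to 1.19% for Csf1r. The Csf1r values include the short model Csf1r-205, 4.53% of its TPM in replicate 1 and 42.1% in replicate 2. Without that model Csf1r had 428 and 178 TPM before rescaling, so its closeness after rescaling depended on the model. Depth limits Csf3, at 12 and 5 counts. No paired analysis was possible because there is 1 group.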
